A study of Mus musculus with 5 samples.

Results

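The genes described here are Nr3c1, which encodes the glucocorticoid receptor, and 5 genes that this receptor is known to induce, Tsc22d3, Fkbp5, Per1, Sgk1 and Zbtb16, measured in plasma cells (PCs) of the mouse bone marrow (BM). All probe sets whose platform annotation names 1 of these 6 genes and no other were taken. They are 18 probe sets for 6 of the 18193 genes named on the array, and no member was named on a probe set shared with another gene. C57BL/6J mice were immunized with NP-CGG in incomplete Freund's adjuvant and boosted with the same injection, and weeks later BM cells were depleted of B220+ and CD49b+ cells and enriched for CD138. RNA of these PCs was taken either directly (ex vivo, 2 arrays) or after 3 days at physiological oxygen with ST2 cells, a mouse stromal cell line, and the cytokine APRIL, followed by a sort of the PCs (cultured, 3 arrays). Experiment 1 gave 1 ex vivo and 1 cultured array. Experiment 2 gave 1 ex vivo and 2 cultured arrays, and no label says whether these 2 came from separate cultures, so p-values may measure technical spread in part.

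Glucocorticoids such as corticosterone, the main adrenal glucocorticoid of the mouse, enter cells freely and bind a receptor that waits in the cytoplasm in a complex with HSP90 chaperones and immunophilins. The bound receptor moves to the nucleus, binds glucocorticoid response elements (GREs) and raises or lowers the transcription of nearby genes, among them Tsc22d3 and Fkbp5 in many lymphoid cells. The comparison asked whether transcripts that follow steroid exposure in the animal were lower after culture. The culture medium held serum (FCS), and the study gives no steroid level for the animals or the medium.

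Of the targets, Tsc22d3 had lower values after culture on its 3 tested probe sets, Sgk1 had higher values, and Fkbp5, Per1 and Zbtb16 had differences of either sign between experiments or below 0.3 on the log2 scale. Nr3c1 itself differed by at most 0.25 on any of its 6 probe sets. No member passed the test for culture, which limma made over all 30477 tested probe sets at an adjusted p under 0.05. That test called 0.0459% of all tested probe sets. With the experiment as a block it called 1.80% of all tested probe sets and again 0 of the 14 tested member probe sets. At an unadjusted p under 0.05 there were 3 member probe sets of 14 without the block, beside 6.59% of all tested probe sets, and 4 with it, beside 18.5%. A probe set was tested if its intensity reached 50 in at least 2 arrays, and 4 of the 18 member probe sets did not reach this.

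Upstream sequences of Sgk1, Tsc22d3 and Per1 are shown because these 3 genes carry the differences described below. Of the 6 Sgk1, 3 Tsc22d3 and 2 Per1 starts listed, the start printed was picked for holding a searched motif, and 3, 2 and 1 of them hold none. They were taken from RefSeq (GRCm38.p6) and hold the 250 bases before a transcription start. Capitals mark the GRE half-site AGAACA, or TGTTCT on the other strand, and the E-box CACGTG, which is bound by clock factors.
Sgk1 (chr10:21993640-21993889, + strand): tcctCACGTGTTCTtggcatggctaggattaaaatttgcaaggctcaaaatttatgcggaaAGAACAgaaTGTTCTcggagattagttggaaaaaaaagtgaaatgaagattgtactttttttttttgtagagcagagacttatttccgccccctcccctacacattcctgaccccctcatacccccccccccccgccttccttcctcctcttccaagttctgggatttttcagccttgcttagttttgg
Tsc22d3 (chrX:140600523-140600772, - strand): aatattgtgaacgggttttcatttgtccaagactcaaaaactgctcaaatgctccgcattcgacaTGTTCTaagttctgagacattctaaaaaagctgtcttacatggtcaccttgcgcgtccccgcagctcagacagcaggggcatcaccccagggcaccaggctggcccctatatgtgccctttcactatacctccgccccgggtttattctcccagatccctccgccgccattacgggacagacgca
Per1 (chr11:69098699-69098948, + strand): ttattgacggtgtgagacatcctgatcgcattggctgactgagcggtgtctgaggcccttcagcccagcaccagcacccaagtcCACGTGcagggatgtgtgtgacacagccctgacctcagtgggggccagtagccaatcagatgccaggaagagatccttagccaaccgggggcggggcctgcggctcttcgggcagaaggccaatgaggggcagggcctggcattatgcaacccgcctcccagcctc
The Sgk1 sequence held both half-sites 3 bases apart, beginning 189 and 180 bases before the start. This arrangement was present in 3 of 32536 upstream regions of this length (0.00922%), those of Sgk1, Acnat2 and Gm35041. The same sequence held a further TGTTCT at 242 that overlaps an E-box at 246. The Tsc22d3 sequence held 1 half-site, TGTTCT, at 185. Half-sites were present in 16.0% of all regions. The Per1 sequence held an E-box at 166, and E-boxes were present in 6.04% of all regions. Among the 12 starts listed for 4 member genes, the remaining matches were half-sites at 195 and at 13 before 2 other Sgk1 starts and an E-box at 169 before an Fkbp5 start. None of these starts belongs to Nr3c1 or Zbtb16, whose upstream sequences were not examined. A match describes letters in the window only and was not tested as a binding site.

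Markers of other cell types moved with culture, and PC markers did not pass the test. The 7 measured PC markers, among them Sdc1, Prdm1 and Irf4, were high in all arrays, with summed intensities from 46871 to 54057, and none was called. Of 15 measured stromal markers, 2 were higher in culture without the block and 10 with it, beside 0.0589% and 1.74% of all tested genes, each taken on its brightest probe set. Their summed intensity was 988 and 807 ex vivo, 5789 in the cultured array of experiment 1, and 16753 and 17004 in both cultured arrays of experiment 2. Of 7 measured macrophage markers 1 was lower without the block and 5 with it, with sums of 1302 and 1088 ex vivo and of 368 to 465 in culture. Markers of neutrophils (4 measured of 7) and of T, NK and innate lymphoid cells (4 of 10) had no call. All 4 neutrophil markers had lower means in culture, with sums of 567 and 390 ex vivo and of 316 to 337 in culture. The T, NK and innate lymphoid markers summed to 364 and 518 ex vivo and to 447, 899 and 695 in culture. Of these, 2 had higher means in culture and 2 lower. Cd4 had log2 intensities of 6.94 and 7.94 ex vivo and of 7.85, 9.34 and 8.76 in culture. Cd3g was lower in culture in both experiments, at 88.8%, 76.1% and 69.4% of the ex vivo level. Of the defining genes of these lymphoid cells, Cd3e, Trac, Nkg7, Gzmb, Klrb1c and Gata3 were not measured. For 2 there was no single-gene probe set, and 4 stayed below the floor. B cell markers (5 of 6) had 1 lower with the block, and erythroid markers (2 of 6) had none. In bulk RNA fewer cells of a type and less RNA per cell cannot be told apart, and the part of these other cells in the values below was not tested.

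The receptor transcript had close levels in all arrays on its brightest probe sets. On the brightest Nr3c1 probe set, 1421867_at, log2 intensity was 10.11 ex vivo and 10.11 cultured in experiment 1, and 10.12 ex vivo and 10.18 and 10.01 cultured in experiment 2. The cultured values lay on both sides of the ex vivo values, and the groups overlapped. The difference, cultured minus ex vivo, was -0.02 ± 0.13 (SE, n = 2 and 3, limma adjusted p = 0.984), and with the experiment as a block its 95% interval ran from -0.30 to 0.27. Of the other 5 probe sets, 1421866_at had the largest difference, with log2 intensities of 7.32 ex vivo and 7.73 cultured in experiment 1, and of 7.92 ex vivo and 7.91 and 7.97 cultured in experiment 2. The single low value here was the ex vivo array of experiment 1. The 6 differences ran from -0.10 to 0.25, and with the block all 6 intervals lay between -0.46 and 0.52. Without the block the intervals were wider, to 0.81 on 1421866_at and to -0.56 on 1431378_at. Without the ex vivo array of experiment 2 the difference of 1421866_at was 0.55.

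Tsc22d3 encodes GILZ, a leucine zipper protein that glucocorticoids induce in lymphocytes and that restrains NF-κB and AP-1. On probe set 1425281_a_at, log2 intensity was 9.23 ex vivo and 8.21 cultured in experiment 1. In experiment 2 it was 9.42 ex vivo and 7.12 and 7.14 cultured. Every cultured value lay below both ex vivo values, and the 2 cultured arrays of experiment 2 were the lowest. The cultured levels were 49.2% of the ex vivo level in experiment 1, and 20.2% and 20.6% in experiment 2. The difference was -1.84 ± 0.38 on the log2 scale (SE, limma adjusted p = 0.370), and with the block -1.75 ± 0.28 (limma adjusted p = 0.053). Without the cultured array of experiment 1 it was -2.20 and passed the test (limma adjusted p = 0.021). The cultured arrays kept in that fit were both of experiment 2, so their spread may be technical. Among the fits that left out 1 array, it called the most probe sets. The lowest Tsc22d3 values fell on the 2 arrays with the highest stromal sums, and macrophage sums were lower in culture in both experiments.

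The brighter probe set of this gene, 1420772_a_at, had log2 intensities of 8.89 ex vivo and 8.50 cultured in experiment 1, and of 9.70 ex vivo and 7.77 and 7.94 cultured in experiment 2. The groups again did not overlap, and the gap was wide in experiment 2 and narrow in experiment 1. The level in culture was 75.9% of the ex vivo level in experiment 1, and 26.4% and 29.6% in experiment 2. The difference was -1.23 ± 0.34 (SE, limma adjusted p = 0.538). The dimmest tested one, 1425557_x_at, had 7.67 ex vivo and 7.25 cultured in experiment 1, and 7.30 ex vivo and 6.90 and 6.91 cultured in experiment 2, a difference of -0.47 ± 0.19 (SE, limma adjusted p = 0.789). Its values were also lower in culture in both experiments, and by nearly the same amount, 0.43 in experiment 1 and 0.39 in both arrays of experiment 2. The last probe set, 1444365_at, reached the floor in 1 array and was not tested.

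**Figure D1:**
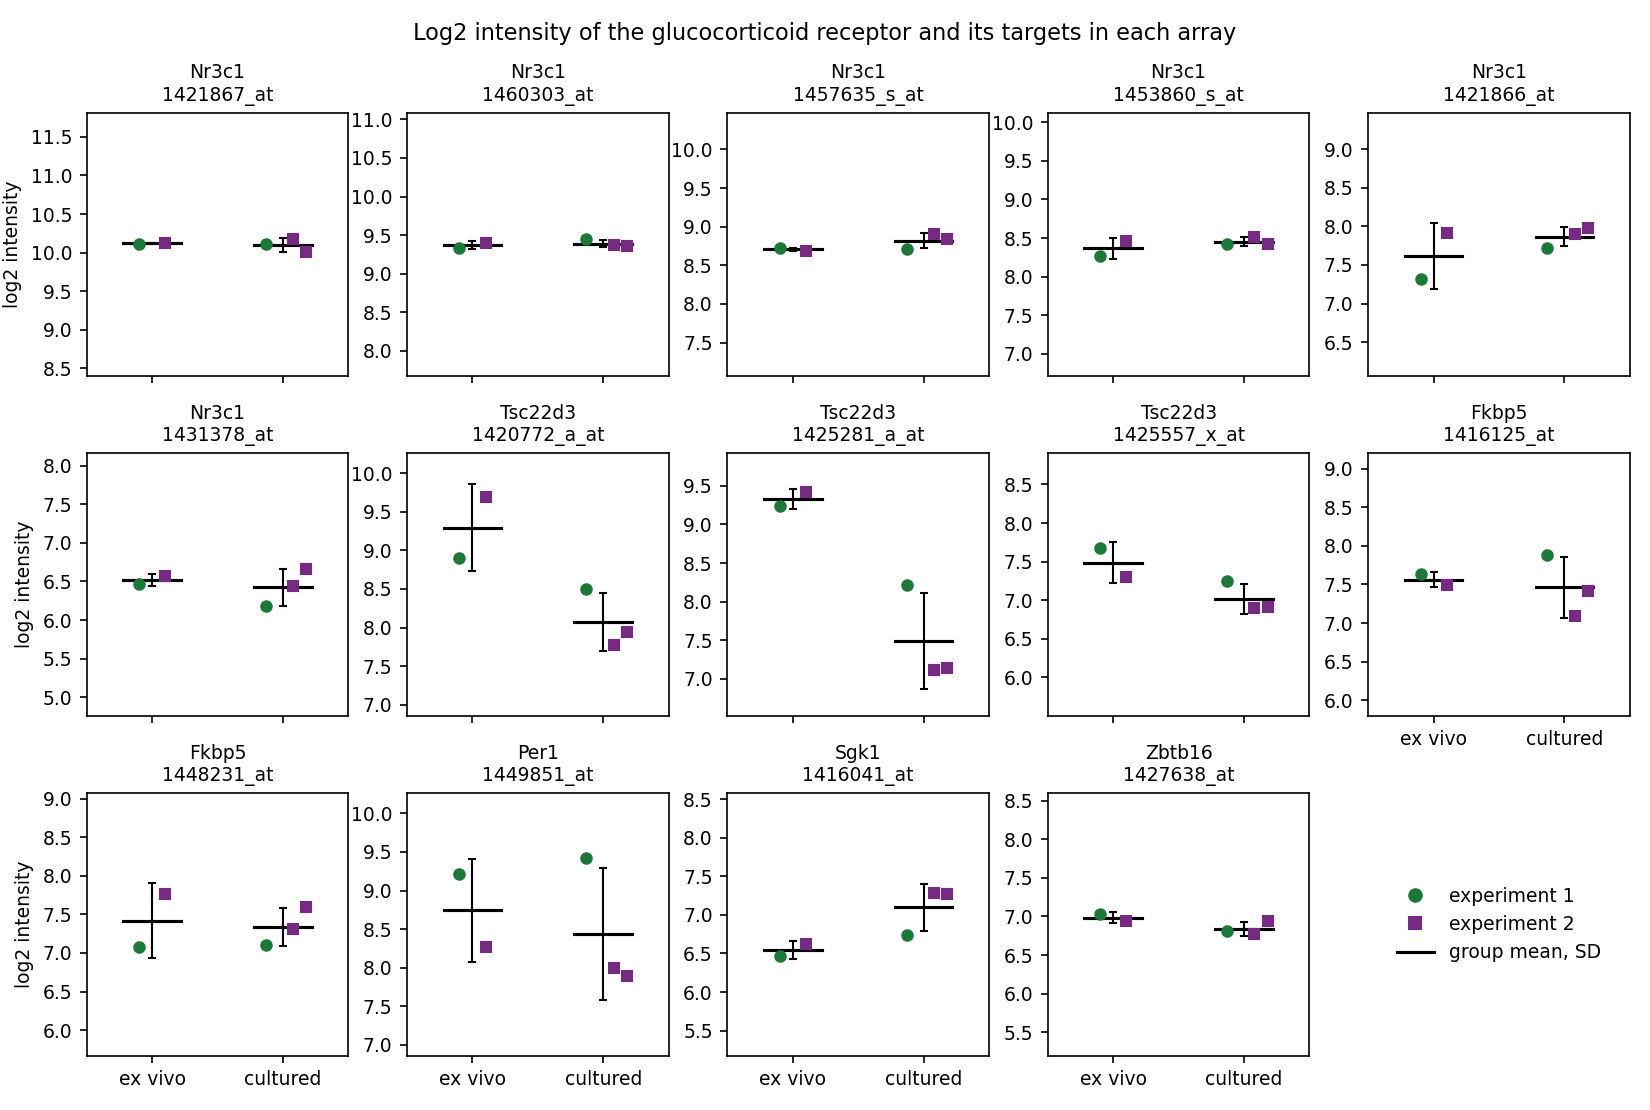
Log2 intensity (vertical axes, each spanning the same range) of the 14 tested probe sets of the 6 genes in the ex vivo and cultured arrays; circles are experiment 1, squares experiment 2, horizontal lines the group means and bars the SD (n = 2 and 3). The cultured points lie below both ex vivo points on all 3 Tsc22d3 probe sets and above both on Sgk1, while the Per1 points separate by experiment.

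On 2 of its 3 tested probe sets the Tsc22d3 values moved further in experiment 2 than in experiment 1. The change in experiment 2 minus that in experiment 1 was -1.27 ± 0.13 (SE) on 1425281_a_at and -1.44 ± 0.19 on 1420772_a_at. Neither passed limma's test of the difference (adjusted p = 0.654 for both, unadjusted p = 0.0054 and 0.0098), which rests on 1 residual degree of freedom and called 0 of all 30477 probe sets, a share of 0%. The number at an unadjusted p under 0.05 was 2008 over all probe sets (6.59%) and 2 over the 14 tested member probe sets.

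Fkbp5 encodes FKBP51, an immunophilin that binds HSP90 in the receptor complex and lowers the receptor's affinity for hormone, in a feedback loop. On probe set 1416125_at, log2 intensity was 7.63 ex vivo and 7.88 cultured in experiment 1, and 7.49 ex vivo and 7.09 and 7.41 cultured in experiment 2. The experiments moved apart, with the cultured array higher in experiment 1 and both cultured arrays lower in experiment 2. The difference over all arrays was -0.10 ± 0.26 (SE, limma adjusted p = 0.956), with an interval under the block from -0.45 to 0.39. On 1448231_at the log2 intensities were 7.08 ex vivo and 7.10 cultured in experiment 1, and 7.76 ex vivo and 7.32 and 7.60 cultured in experiment 2. The difference was -0.08 ± 0.27 (SE, limma adjusted p = 0.966). The groups overlapped on both probe sets, and another, 1447736_at, stayed below the floor in all 5 arrays. The lower ends of the intervals were -0.45 and -0.52 with the block and -0.76 on both tested probe sets without it.

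Sgk1 encodes a kinase that glucocorticoids and mineralocorticoids induce and that acts downstream of PI3K. Its only probe set, 1416041_at, had log2 intensities of 6.46 ex vivo and 6.74 cultured in experiment 1, and of 6.63 ex vivo and 7.28 and 7.27 cultured in experiment 2. All 3 cultured values lay above both ex vivo values. In culture the level was 121% of the ex vivo level in experiment 1 and 157% in both arrays of experiment 2. The ex vivo intensities, 88.2 and 98.7, were close to the medians of these arrays, 87.05 and 91.94, so these percentages start from a low signal. The difference was 0.55 ± 0.22 (SE, limma adjusted p = 0.758), and with the block 0.49 ± 0.13 with an interval from 0.17 to 0.81 (limma adjusted p = 0.134). Its highest values fell on the 2 arrays with the highest stromal sums.

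Zbtb16 encodes PLZF, a zinc finger repressor of innate-like lymphocytes that is also induced by glucocorticoids in several tissues. On its 1 tested probe set, 1427638_at, log2 intensity was 7.03 ex vivo and 6.82 cultured in experiment 1, and 6.93 ex vivo and 6.77 and 6.93 cultured in experiment 2. The difference of -0.14 ± 0.13 (SE, limma adjusted p = 0.908) was about the size of its error, and the groups overlapped. Its intensities of 109 to 131 were not far above the array medians of 87.05 to 94.14, so passing the floor does not show that it was expressed. The other 2 probe sets, 1439163_at and 1419874_x_at, stayed below the floor in all arrays, at log2 intensities from 4.27 to 4.41 and from 3.07 to 3.39.

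Over the 14 tested member probe sets, 3 had all cultured values below all ex vivo values, and they were the 3 of Tsc22d3. This arrangement was found on 10.6% of all tested probe sets. The reverse arrangement was found on 1 member probe set, that of Sgk1, and on 9.42% of all tested probe sets. The median difference was -0.09 over the member probe sets and -0.02 over all tested probe sets.

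**Figure D2:**
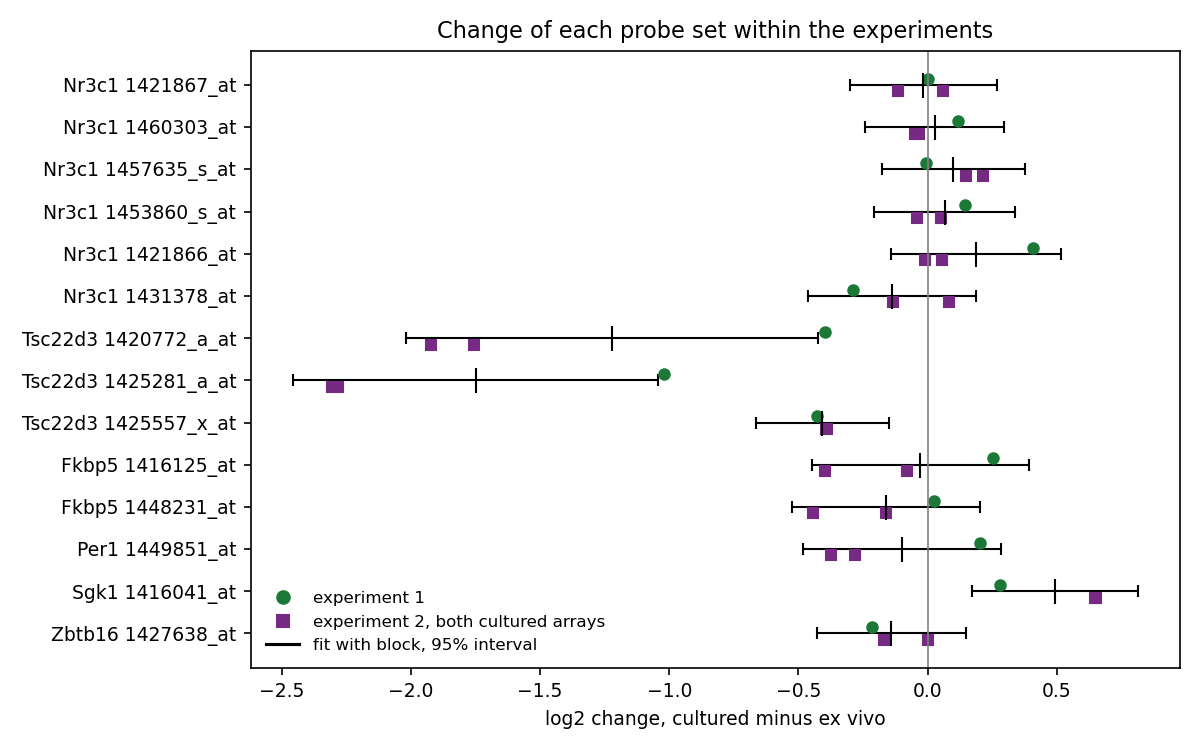
Log2 change, cultured minus ex vivo (horizontal axis), of each tested probe set within experiment 1 (circles) and for both cultured arrays of experiment 2 (squares), with the limma estimate with the experiment as a block (tick) and its 95% interval (line). The intervals of the 3 Tsc22d3 probe sets lie below 0 and that of Sgk1 above 0 before adjustment over all probe sets, and those of Nr3c1 lie between -0.46 and 0.52.

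Per1, a core repressor of the circadian clock that glucocorticoids also induce directly, differed between the experiments, while its values overlapped between the conditions. Its probe set 1449851_at had log2 intensities of 9.22 ex vivo and 9.42 cultured in experiment 1, and of 8.27 ex vivo and 7.99 and 7.90 cultured in experiment 2. Both arrays of experiment 1 lay above all 3 of experiment 2, and the culture groups overlapped. The culture difference was -0.31 ± 0.57 (SE, limma adjusted p = 0.944), and with the block -0.10 ± 0.15. The difference of experiment 2 minus experiment 1, with culture in the model, was -1.25 ± 0.15 (SE, limma adjusted p = 0.0058). It was the 1 member probe set of 14 that passed this test, which called 26.8% of all tested probe sets. The difference was -1.48 when either ex vivo array was left out and -0.94 when the cultured array of experiment 1 was. Each of these fits keeps only 1 array of a condition or of an experiment. The call was lost in them, as were the calls of all other probe sets. On Fkbp5 1448231_at the experiments differed by 0.50 ± 0.15 in the other direction (SE, limma adjusted p = 0.056). This passed without the first cultured array of experiment 2 (0.59, limma adjusted p = 0.033), in a fit that called 6916 of the 30477 tested probe sets.

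Of 17 measured clock genes, 3 were higher and 3 lower in experiment 2, where 25.1% of all 13578 tested genes were called, each taken on its brightest probe set. This count of 6 is near the share over all genes and is not a result about clock genes. The 6 are named here after their values were seen. Bhlhe41, a repressor of clock transcription, differed by -4.58 ± 0.14, Cry1, a partner of the PER proteins, by -0.99 ± 0.18, and Dbp, an output factor of the clock, by -0.82 ± 0.12 (SE). These were lower in experiment 2. Nr1d2, a nuclear receptor of the clock, was higher by 1.26 ± 0.16, Per3 by 0.68 ± 0.11 and Bhlhe40, a relative of Bhlhe41, by 0.63 ± 0.14. These 6 calls were lost when any 1 of both ex vivo arrays and the experiment 1 cultured array was left out, and such fits called 0 of all probe sets. With culture, Bhlhe40 was the only one of the 17 called, and only with the block (1.51 ± 0.14, limma adjusted p = 0.013), beside 1.74% of all tested genes. The experiments also differed in the Actb controls, whose 3' probe set over the 5' one gave log2 ratios of 0.31 and 0.77 in experiment 1 and from -0.12 to -0.01 in experiment 2, and their part in the Per1 difference was not tested.

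**Figure D3:**
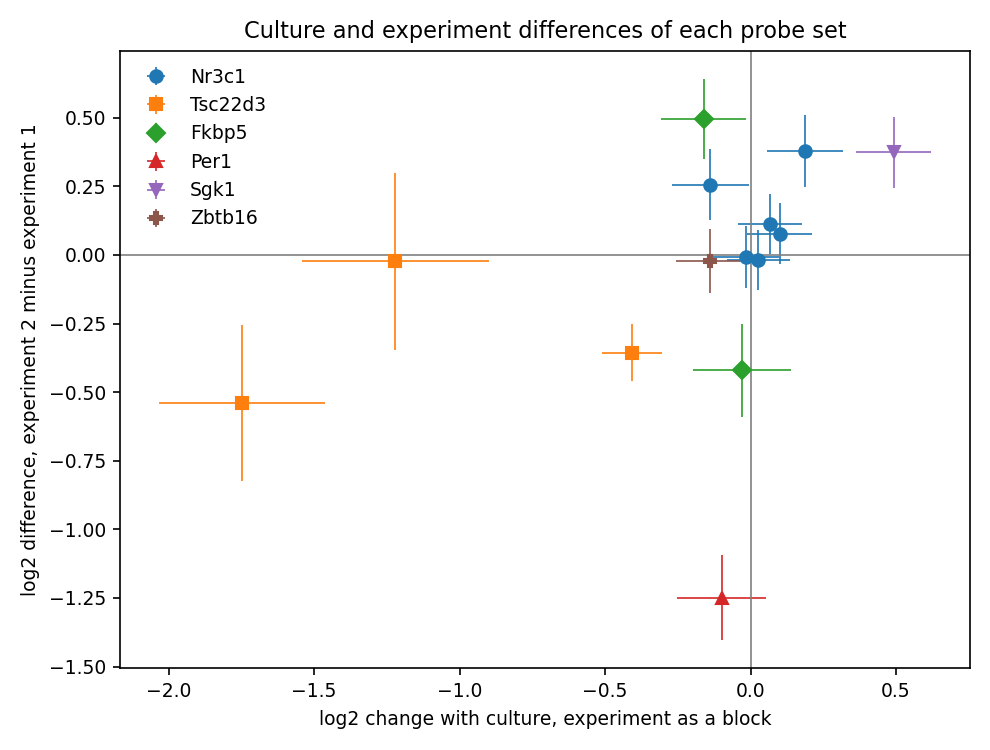
Log2 change with culture in the limma fit with the experiment as a block (horizontal axis) against the log2 difference of experiment 2 minus experiment 1 (vertical axis) for the 14 tested probe sets, with 1 marker and colour per gene and bars of 1 SE. Per1 sits low near the vertical zero line at -1.25, and the 3 Tsc22d3 probe sets lie to the left.

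Transcripts of steroid metabolism and of the receptor's partners were read from lists of genes, and neither hormone nor enzyme activity was measured. Hsd11b1 encodes 11β-HSD1, which regenerates active corticosterone from its inert 11-keto form inside cells. Its log2 intensity was 11.64 ex vivo and 10.38 cultured in experiment 1, and 11.22 ex vivo and 10.14 and 9.91 cultured in experiment 2. All 3 cultured values lay below both ex vivo values by a similar step, at 41.8% of the ex vivo level in experiment 1 and at 47.3% and 40.1% in experiment 2. The difference was -1.29 ± 0.22 (SE, limma adjusted p = 0.263), and it passed the test with the block (-1.23 ± 0.12, limma adjusted p = 0.017). When the second cultured array of experiment 2 was left out of that fit it was -1.17 and did not pass (adjusted p = 0.068). Hsd11b1 was the only one of 6 measured genes of steroid metabolism and transport called, and only with the block, beside 1.74% of all tested genes. The 6 had a median difference of -0.46, against -0.06 over all tested genes. They include genes of opposite roles, so this median gives no direction for the supply of active hormone. Hsd11b2, which inactivates corticosterone, had -0.14 ± 0.13 at log2 intensities between 5.93 and 6.17, close to the floor.

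Among 6 measured genes of the receptor's chaperone complex and 9 receptor coregulators none was called in either fit. Hsp90aa1, the inducible HSP90, had 0.24 on its brightest probe set, with 1 of its 4 tested probe sets in the other direction, and Bag1, a co-chaperone, -0.29. The largest differences of the coregulators were -0.38 for Carm1, an arginine methyltransferase, and -0.36 for Ncoa3, a p160 coactivator. Neither the 3 other measured steroid receptors, with -0.28 for the estrogen receptor Esr1 and 0.07 for the mineralocorticoid receptor Nr3c2, nor the 12 measured relatives of the members were called. Among the latter, Tsc22d1, of the same family as Tsc22d3, had 0.50 and Sgk3, of the same family as Sgk1, -0.47. Of 8 substrates and regulators of SGK1, 1 was called, and only with the block, beside 1.74% of all tested genes. It was Ndrg1, a phosphorylation target of this kinase, which rose (1.99 ± 0.23, limma adjusted p = 0.024). With the block 4 of its 5 probe sets were called. On its brightest probe set the call was lost when either cultured array of experiment 2 was left out (adjusted p = 0.0512 and 0.0503). The highest values there, 8.85 and 9.19, fell on the 2 arrays with the highest stromal sums, and phosphorylation was not measured on these arrays.

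Other genes that glucocorticoids induce did not share a direction. Of 26 measured, 1 was called without the block and was lower, and 9 were called with it, 5 higher and 4 lower. Over all tested genes, each on its brightest probe set, the shares called were 0.0589% without the block and 1.74% with it. Their median difference was 0.17, against -0.06 over all tested genes. Dusp1, a phosphatase of MAP kinases, fell in both fits (-4.07 ± 0.25, limma adjusted p = 0.039). Its log2 intensity was 11.56 ex vivo and 7.24 cultured in experiment 1, and 10.84 ex vivo and 6.98 and 7.17 cultured in experiment 2. Without the block the call was lost when any 1 array other than the cultured one of experiment 1 was left out (adjusted p from 0.224 to 0.473), and with the block it was kept when either cultured array of experiment 2 was left out. Dusp1 is also an immediate-early gene. Of 15 measured immediate-early genes, beside 0.0589% and 1.74% of all tested genes, 5 were lower without the block and 11 with it, among them Fos. Its log2 intensity was 13.04 and 13.16 ex vivo and from 4.59 to 5.07 in culture, below the intensity floor of 50, so its fall has only a bound. Zfp36, an RNA-binding protein that destabilizes cytokine transcripts, is on both lists too and was lower with the block at -1.08. The part of the immediate-early genes in these differences was not tested.

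Il7r, the IL-7 receptor chain and a glucocorticoid target of T cells, fell with the block (-1.82 ± 0.13, limma adjusted p = 0.0063), from log2 intensities of 6.61 and 6.69 ex vivo to between 4.59 and 5.06 in culture, which is below the floor. Rgs2, which limits G protein signalling, also fell with the block, by 1.14. Those that rose with the block were Anxa1, an anti-inflammatory phospholipid-binding protein (2.88 ± 0.32), Errfi1, an inhibitor of the EGF receptor (1.90 ± 0.25), Cdkn1a, a cell cycle inhibitor (1.49), Pdk4, a kinase that inhibits pyruvate dehydrogenase (1.15), and the metallothionein Mt1 (0.98). The Errfi1 call was lost when either cultured array of experiment 2 was left out (adjusted p = 0.057 and 0.052). Cdkn1a, Pdk4, Mt1, Zfp36 and Rgs2 are named after their values were seen. Anxa1 had log2 intensities of 4.80 and 4.23 ex vivo, below the floor, and of 6.89, 7.52 and 7.87 in culture, and Pdk4 was below the floor ex vivo too. The highest Anxa1, Errfi1 and Pdk4 values fell on the 2 arrays with the highest stromal sums. The highest Cdkn1a and Mt1 values, 9.96 and 12.13, fell on the cultured array of experiment 1. Of 7 measured genes that glucocorticoids repress, 1 was called with the block, beside 1.74% of all tested genes. It was Cxcl10, an interferon-induced chemokine, and was higher (1.38 ± 0.12, limma adjusted p = 0.0097). The median difference of the 7 was 0.49. This median is the value of Ccl2, a chemokine for monocytes, whose change was -0.05 in experiment 1 and 0.74 and 0.87 in experiment 2. Mmp13, a collagenase, had 1.14 in experiment 1 and 3.45 and 3.37 in experiment 2 from ex vivo values below the floor, and was not called. Ccl2 and Mmp13 were highest on the 2 arrays with the highest stromal sums, while Cxcl10 was highest on the cultured array of experiment 1. Icam1, an adhesion molecule, changed by 0.86 in experiment 1 and by 1.15 and 0.67 in experiment 2, and was not called. The remaining measured genes of this list had differences without the block of -0.23 (Nos2), -0.04 (Il1b) and 0.06 (Tnf) and were not called. Ccl2, Mmp13, Icam1, Nos2, Il1b and Tnf are named after their values were seen.

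**Figure D4:**
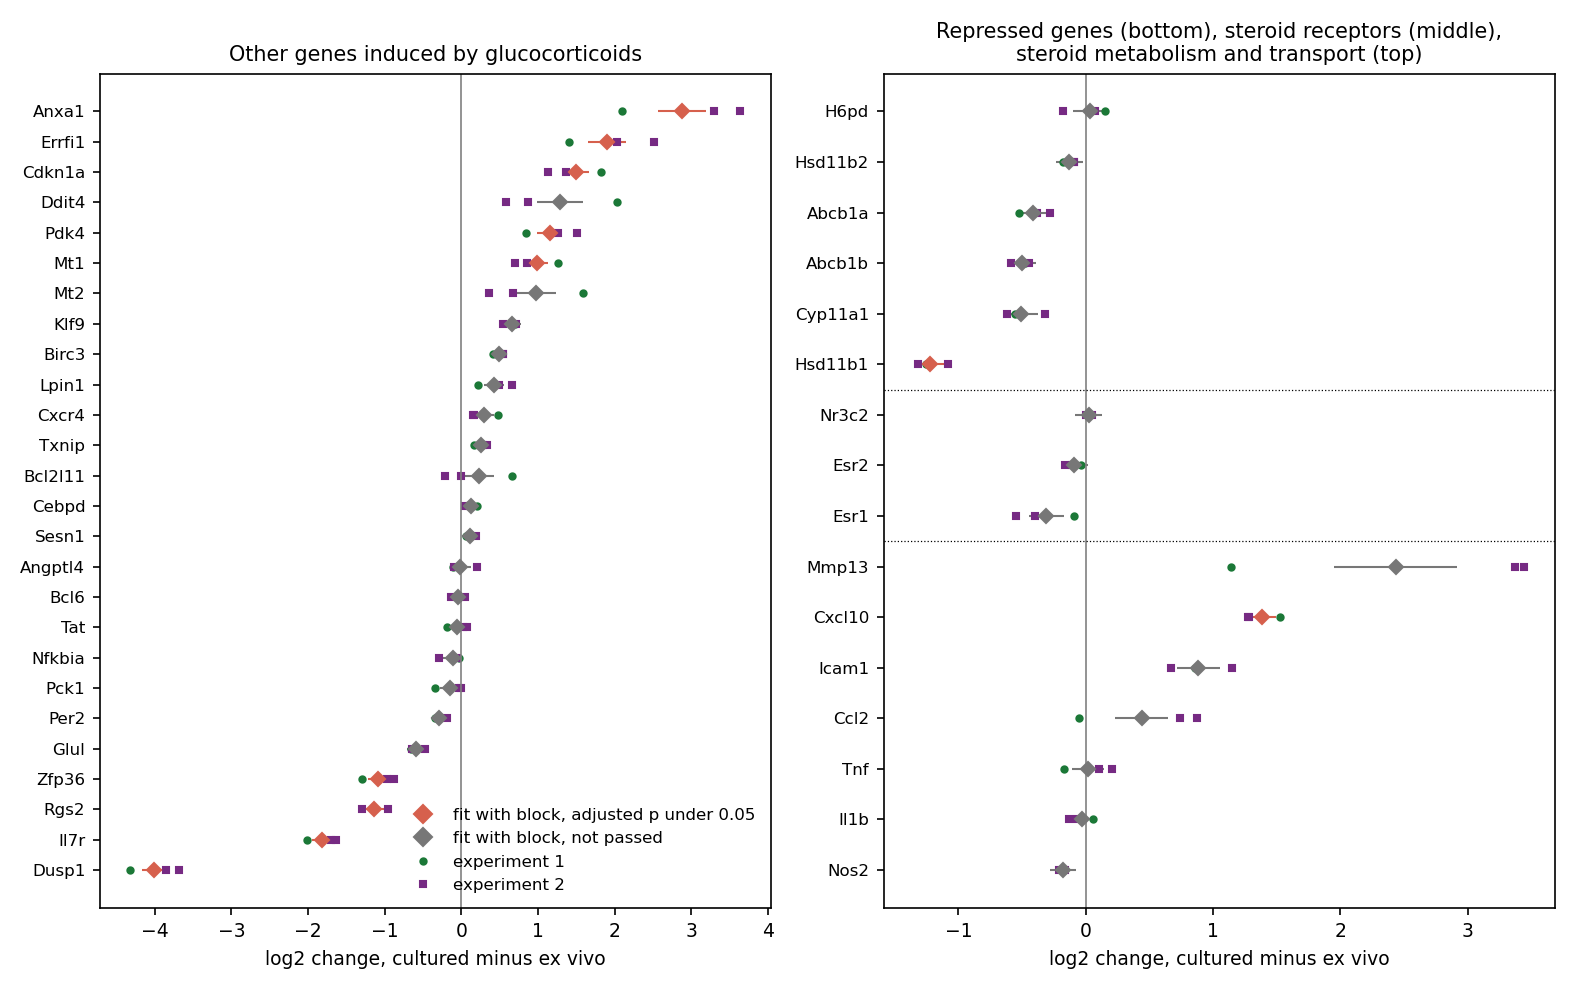
Log2 change, cultured minus ex vivo (horizontal axes), of 26 other genes induced by glucocorticoids (left) and of repressed genes, other steroid receptors and genes of steroid metabolism (right), each on its brightest probe set; diamonds are limma estimates with the experiment as a block ± SE, coloured where the adjusted p is under 0.05, and small points are the values within each experiment. The induced genes spread from Dusp1 at the lower end to Anxa1 at 2.88, and Hsd11b1 is the called gene at the lower end of steroid metabolism.

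The genes whose profile over the 5 arrays lay closest to that of each member, by the root-mean-square distance of centred log2 values, were found among all tested single-gene probe sets. Closest to Tsc22d3 (1420772_a_at) were Cpt1a, the carnitine palmitoyltransferase of fatty acid oxidation, at 0.13, Acp5, an acid phosphatase, at 0.18 and Ctla4, an inhibitory receptor of T cells, at 0.23. Closest to Per1 were Cic, a transcriptional repressor, at 0.04, Ttc14 at 0.05 and Tatdn2 at 0.06, and closest to Sgk1 were Nxn at 0.02, Psma1, a proteasome subunit, at 0.04 and Bcl9l, a coactivator of β-catenin, at 0.05. These members varied over the arrays with an SD of 0.78, 0.71 and 0.38. For Fkbp5 they were Kif5b, Arid1a and Sepsecs, all at 0.02 to 0.03. Nr3c1 and Zbtb16 varied so little, with SDs of 0.06 and 0.11, that nearness carried little information, and their closest genes were Gm39874, Odf1 and Penk and, for Zbtb16, Tbpl1, Nme1 and Srsf3. For the other members too, no background distance was computed over these 5 arrays, so nearness is only described.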

How the data were processed

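PCs were profiled on Affymetrix GeneChip mouse expression arrays. RMA, run by the authors in affy, gave background-corrected, normalized and summarized values, and GCOS is a further tool in the submitters' processing notes (no version is stated in those notes). The intensities as deposited are linear (4.94 to 26947.18), and log2 was taken. Array medians were 87.05 to 94.14, and the number of arrays limits the precision.

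Groups came from the labels. Of 45037 probe sets other than 64 controls, 34945 name 1 gene, 932 several and 9160 none listed here. The 30477 that reached an intensity of 50 on 2 or more arrays were tested in limma 3.58.1 under R 4.3.3 with lmFit and eBayes, and p-values were adjusted by Benjamini-Hochberg over all of them. Culture alone was the main design, as the methods name no covariate. Further fits added the experiment as a block, tested the experiment itself beside culture, and tested the interaction. The fit was checked on simulated data. A permutation test of 2 against 3 arrays cannot go below p = 0.1 and was not used. The labels share the experiment numbers between the conditions, and deviations from the group means correlated at 0.749 in experiment 1 and at 0.558 and 0.719 in experiment 2, so the numbers were taken to pair the arrays. The 2 ex vivo deviations mirror each other, so these are not independent.

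The members and lists were chosen with earlier results of these data known. Named were all members, and of each pathway list up to 4 genes called in either fit by size of difference, or else the 2 with the largest differences, on the brightest tested probe set, plus the 3 genes closest to each member. Sequences were searched on both strands. Figures were drawn with matplotlib 3.10.9. Alternatives were the block, averaging both cultured arrays of experiment 2, filters, normalizations, a constant added to the intensity, moderation, the threshold, the mean of a gene's probe sets and leaving out each array.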

Additional observations from a re-analysis of the deposited data

Results flagged for a closer look

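Both results below were picked out because every array of experiment 2 moved opposite to experiment 1 on a probe set too dim to be tested, and the difference between the experiments was not tested. On Tsc22d3 1444365_at, the change in experiment 2, averaged over both cultured arrays, minus that in experiment 1 was -1.54 on the log2 scale. Its log2 intensity was 4.16 ex vivo and 5.17 cultured in experiment 1, and 5.65 ex vivo and 5.25 and 4.99 cultured in experiment 2. On Fkbp5 1447736_at the same quantity was 0.18, at log2 intensities from 4.66 to 4.79 in all arrays.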

How the results depend on the processing

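The number of probe sets called for culture was 14 and depended on the setting. It was 550 with the experiment as a replicate block, 0 with both cultured arrays of experiment 2 averaged, 187 with averaging and the replicate block, 5 with no filter, 3 over the 10000 brightest probe sets, 3 with 32 added to each intensity and 618 at an unadjusted p under 0.01. Leaving out 1 array gave from 0 to 257, the highest without the cultured array of experiment 1. With the replicate block, leaving out a cultured array of experiment 2 gave 271 and 153 in place of 550. Of the members 0 were called, and 1, Tsc22d3 1425281_a_at, at an unadjusted p under 0.01. Leaving out 1 array gave at most 1 member called, without the cultured array of experiment 1, and at most 2 called between the experiments. The fit that called 2 left out the first cultured array of experiment 2 and called 6916 of the 30477 tested probe sets. The replicate block called 0 members (adjusted p of Tsc22d3 1425281_a_at 0.053).

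Tsc22d3, Sgk1, Zbtb16 and Nr3c1 1457635_s_at kept the sign of their culture difference in every alternative. On Tsc22d3 1425281_a_at it ran from -2.20 to -1.65, on Tsc22d3 1420772_a_at from -1.63 to -0.83 and for Sgk1 from 0.43 to 0.73. Differences near 0 changed sign when 1 array was left out. They ran from -0.058 to 0.029 (Nr3c1 1421867_at), -0.013 to 0.060 (Nr3c1 1460303_at), -0.011 to 0.18 (Nr3c1 1453860_s_at), -0.049 to 0.55 (Nr3c1 1421866_at), -0.21 to 0.028 (Nr3c1 1431378_at), -0.31 to 0.085 (Fkbp5 1416125_at), -0.42 to 0.26 (Fkbp5 1448231_at), -0.80 to 0.16 (Per1), -0.63 to 0.062 (Bag1) and -0.078 to 0.23 (Nr3c2). Nr3c1 1460303_at was -0.028 with median centring, Fkbp5 1416125_at 0.0066 with averaging, with and without the replicate block, and Nr3c1 0.0598 as the mean of its probe sets. The cause was not tested. The 2 and 3 arrays per group limit what could be detected.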
